A study of Mus musculus with 4 samples.

Results

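miR-296 and miR-298 are a pair of miRNAs from neighbouring hairpins at the imprinted Gnas locus of the mouse. The 3 members described here, mmu-miR-296-5p, mmu-miR-296-3p and mmu-miR-298-5p, were selected by name among the 1029 miRNA names of the deposited table, and their sequences were selected on measured values: of the 97 sequences carrying these names (32, 17 and 48 for miR-296-5p, miR-296-3p and miR-298-5p), the 21 with a mean of at least 1 CPM over the 4 libraries (8, 3 and 10) are described individually. CPM are reads of an sRNA scaled to the same total, 1e6 reads, in every library. The libraries were made by Ago-RP-Seq, in which a GW182 peptide pulls the Ago proteins out of a lysate and the small RNAs they hold are sequenced, so that each read stands for an sRNA bound to the RNA-induced silencing complex (RISC), here called R-sRNA. The tissue was cortex and hippocampus, combined, of male C57BL/6J mice, with 2 libraries from mice aged 2 months and 2 from mice aged 18 months. The age difference of the 3 miRNAs was known when they were grouped, so that the p values given for it describe its size against the spread between these libraries and are not independent evidence. Nothing in the labels says how the mice of one age were related to each other, and p values cover only the spread between these 4 libraries.

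The Gnas locus is expressed from one parental allele in part of its transcripts, and miR-296 and miR-298 are known as miRNAs of the paternal allele, linked to the antisense noncoding transcript Nespas. As all miRNAs, they are cut from a hairpin precursor into a 5p and a 3p arm, of which usually only 1 stays in the RISC as the guide, and the guide finds mRNAs mainly through its seed at the 5′ end. miR-296-5p is known from endothelial cells, where it was described as a miRNA of blood vessel growth, and from embryonic stem cells, where it targets pluripotency factors. miR-298-5p is known in the brain as a repressor of Bace1, the protease that starts the processing of amyloid precursor protein to amyloid-β.

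The mature sequences are shown because the seed is what links each miRNA to its targets and to a viability score. They are the RefSeq entries for GRCm38.p6, written 5′ to 3′ with the seed (bases 2 to 8) in capitals. All 3 members and the other arm of the Mir298 hairpin were found in RefSeq.
miR-296-5p: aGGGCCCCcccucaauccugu
miR-296-3p: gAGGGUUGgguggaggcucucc
miR-298-5p: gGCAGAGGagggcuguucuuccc
miR-298-3p: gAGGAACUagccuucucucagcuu
No seed was shared between these 4 sequences. The GC content was 66.7% for miR-296-5p, 68.2% for miR-296-3p and 65.2% for miR-298-5p, against 50% for miR-298-3p.

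Both hairpins lie on the minus strand of chromosome 2 in GRCm38, Mir296 at chr2:174267047-174267125 and Mir298 at chr2:174267504-174267585, with 378 bases between them. Within them, miR-296-5p lies at 174267093 to 174267113, miR-296-3p at 174267058 to 174267079 and miR-298-5p at 174267553 to 174267575. In the GENCODE annotation no other gene overlaps either hairpin, so that they fall in no annotated exon, intron or UTR of another gene. The annotated start or end of Nespas nearest to the hairpins, on the same strand, is 13.651 kb away, and that of Gnas, on the plus strand, 16.734 kb. The precursors are shown with their arms in capitals, since the positions of the reads along them are given next.
Mir296: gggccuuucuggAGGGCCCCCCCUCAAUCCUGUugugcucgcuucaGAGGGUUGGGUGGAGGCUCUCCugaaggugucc
Mir298: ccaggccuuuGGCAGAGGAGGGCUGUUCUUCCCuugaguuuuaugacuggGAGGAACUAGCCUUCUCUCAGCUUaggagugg

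miR-296-5p was the most abundant of the 3 in the RISC and was lower in each 18-month library than in either 2-month library. It had 263 and 336.7 CPM at 2 months, against 69.3 and 60.8 CPM at 18 months, from 2758, 3835, 733 and 551 reads. Its mean fell from 300 ± 52.1 CPM to 65.0 ± 6.04 CPM (SD, n = 2), a ratio of 4.61. Among the 1029 miRNA names, it ranked 205 and 193 by abundance at 2 months and 286 and 306 at 18 months. With limma on log2(CPM + 1), the change was -2.18 (SE 0.23, adjusted p = 0.0277, Benjamini-Hochberg over 456 miRNAs). This adjusted call was lost with edgeR (adjusted p = 0.0509), with a replicate block (0.220) and in 3 of the 4 limma fits that left out 1 library: 0.0935 without replicate 2 at 2 months, 0.207 without replicate 1 at 18 months and 0.155 without replicate 2 at 18 months. The replicates differed by 0.36 at 2 months and by -0.19 at 18 months on the same log2 scale (replicate 2 minus replicate 1), while the differences between single libraries of the 2 ages were -2.45 to -1.91.

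miR-296-3p, the other arm of the same hairpin, was about an order of magnitude less abundant and showed the same direction. It had 22.8 and 35.6 CPM at 2 months, against 6.53 and 7.28 CPM at 18 months, from 239, 405, 69 and 66 reads. The ages did not overlap, and the means were 29.2 ± 9.03 and 6.90 ± 0.535 CPM (SD, n = 2), a ratio of 4.23. The log2 change was -1.90 (SE 0.32, limma), and at an adjusted p of 0.0968 it did not pass the threshold of 0.05. The spread between its replicates was 0.62 at 2 months and 0.14 at 18 months on the log2 scale.

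miR-298-5p, from the neighbouring hairpin, also had lower values in both older libraries. It was found at 149 and 182 CPM at 2 months, against 42.2 and 54.2 CPM at 18 months, from 1561, 2070, 446 and 491 reads. The means were 165 ± 23.2 and 48.2 ± 8.47 CPM (SD, n = 2), a ratio of 3.43. Its log2 change was -1.76 (SE 0.24, limma) and its adjusted p of 0.0646 missed the threshold.

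**Figure D1:**
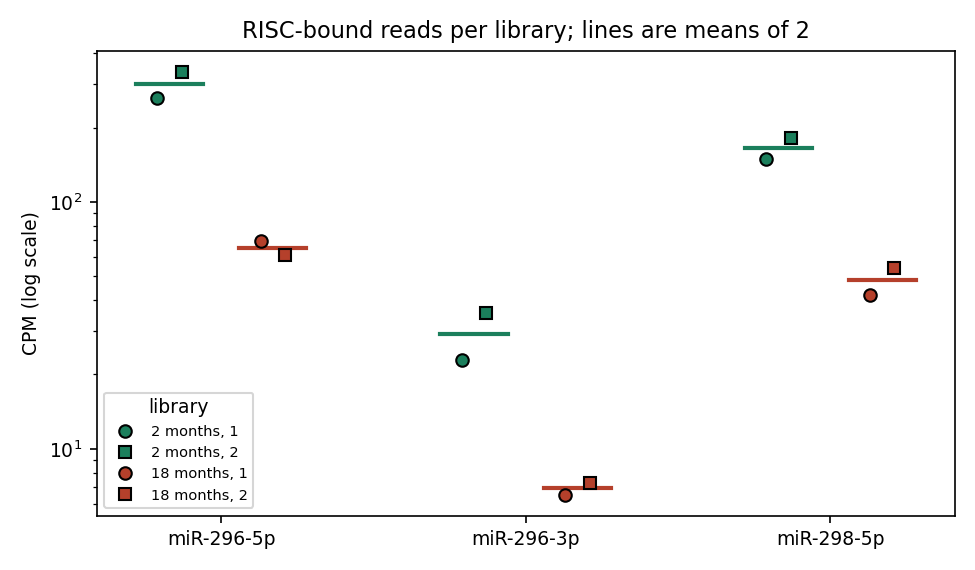
CPM (log scale) of miR-296-5p, miR-296-3p and miR-298-5p in each library, with circles for replicate 1, squares for replicate 2 and a line at the mean of the 2 libraries of an age. For each miRNA both 18-month libraries lie below both 2-month libraries, with ratios of the means of 4.61, 4.23 and 3.43.

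All 3 members passed the filter for testing (a mean of at least 10 CPM, passed by 456 of 1029 miRNAs). Their log2 changes ranked 1, 2 and 3 from the lowest of the 456, and the lowest among the other 453 was -1.37. Of all tested miRNAs, 16.2% passed an unadjusted p of 0.05 in either direction, 12.1% passed it with lower values at 18 months and 0.219% (only miR-296-5p) passed an adjusted p of 0.05. In 41.4% both 18-month libraries lay below both 2-month libraries, so that the missing overlap alone sets no miRNA apart here. On the CPM scale the median log2 change of the 456 was -0.22, and it was -0.01 once libraries had been scaled by the median of ratios. That scaling is computed from these same miRNAs and brings their median near 0 by construction, so it cannot tell which scale is right. With that scaling the changes of miR-296-5p, miR-296-3p and miR-298-5p were -1.97 (adjusted p = 0.0450), -1.71 (adjusted p = 0.174) and -1.55 (adjusted p = 0.0889, limma), and 39 miRNAs were called higher and 25 lower instead of 19 and 55 at an unadjusted p under 0.05. In bulk tissue, fewer cells that hold a miRNA, less of it per cell and less of it loaded per RISC cannot be told apart.

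**Figure D2:**
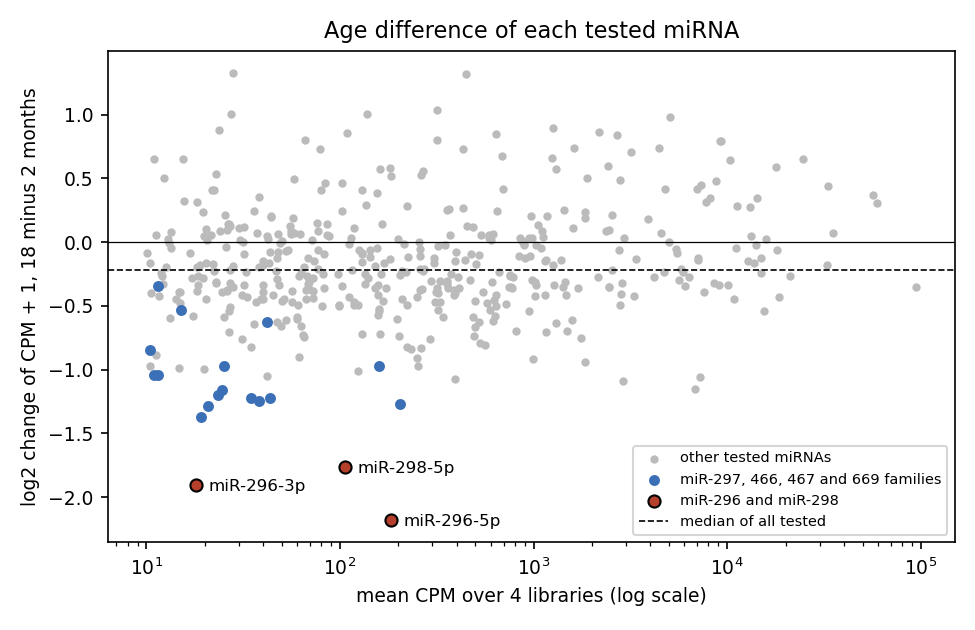
Log2 change of CPM + 1 (18 minus 2 months) against mean CPM (log scale) for the 456 tested miRNAs, with the 3 members in red, the miR-297, miR-466, miR-467 and miR-669 families in blue and the median of all tested miRNAs as a dashed line at -0.22. The 3 members lie below every other tested miRNA, of which the lowest is at -1.37.

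The proportions between the members were then compared, since they do not depend on the scale of a library. miR-296-5p held 92.0% (95% Wilson interval 91.0 to 92.9) and 90.4% (89.5 to 91.3) of the reads of both arms at 2 months. At 18 months it held 91.4% (89.3 to 93.1) and 89.3% (86.6 to 91.5). The ages overlapped, and the difference of -0.889 percentage points was smaller than the gap between replicates (exact permutation test, two-sided, p = 0.667, where 2 libraries against 2 cannot go below 0.33). These intervals cover counting error only, since reads are PCR copies and the methods describe no molecular identifiers.

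The ratio of miR-296-5p to miR-298-5p was 1.77 and 1.85 at 2 months and 1.64 and 1.12 at 18 months. The ages did not overlap, but the gap came mostly from replicate 2 at 18 months, and the exact two-sided permutation test gave its smallest possible p of 0.33. The ratio of miR-298-5p to miR-296-3p was 6.53 and 5.11 at 2 months and 6.46 and 7.44 at 18 months, with overlapping ages.

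Along the hairpins, the reads that carry the name of an arm were placed. In Mir298 the 3p arm was nearly empty: miR-298-3p was represented by 2 sequences with 5 and 6 reads at 2 months and 0 and 2 reads at 18 months, up to 0.527 CPM. For the 18-month library without a read, 3 reads correspond to 0.284 CPM, so that no difference between the ages was detectable at this depth. A further 14 sequences without a miRNA name were assigned to the Mir296 hairpin in the authors' annotation. Here they were placed on it by the bases before their first mismatch. This run was 3 to 12 bases long, and none matched over its whole length. Of the 14, 11 began at the first base of miR-296-5p, and 9 carried GGGCCC from its seed. The bases after the mismatch were not compared, so the authors' assignment of these reads to the hairpin was not tested. They were found with 4.29 and 5.62 CPM at 2 months, against 1.04 and 1.21 CPM at 18 months, and were not counted as members. To Mir298, 2 such sequences were assigned, with 6 and 0 reads at 2 months and 4 and 0 reads at 18 months. No row of the table was named after Gnas or Nespas themselves.

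**Figure D3:**
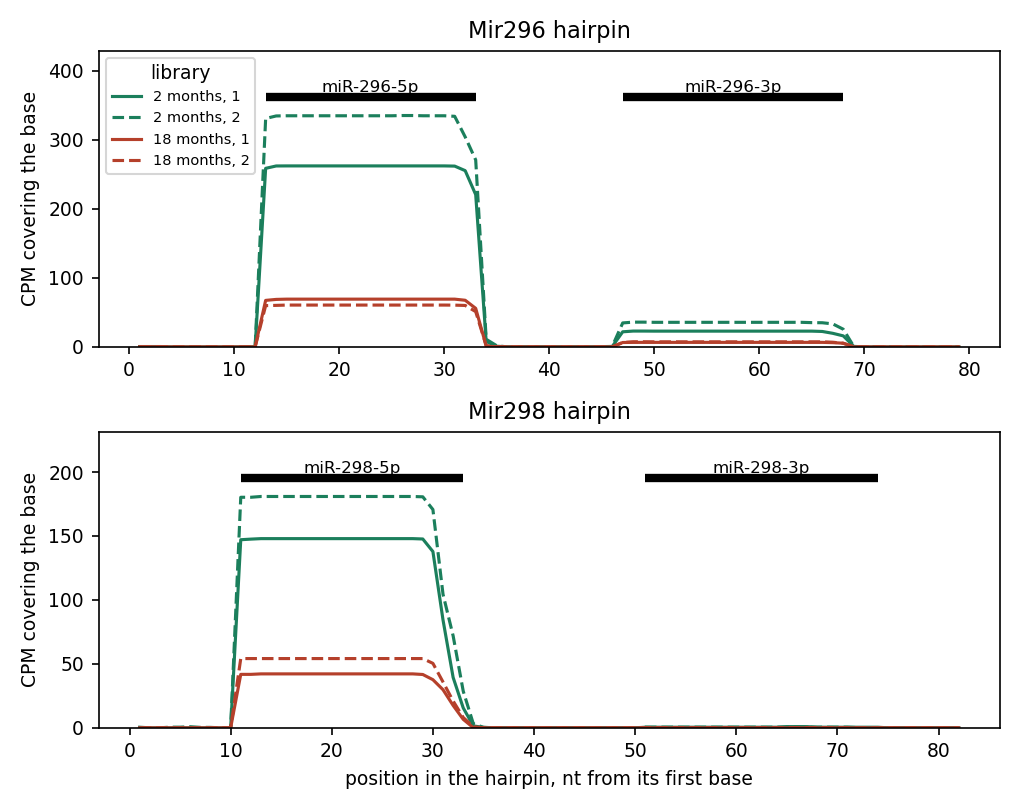
CPM of reads named after an arm that cover each base of the Mir296 and Mir298 hairpins, counted in nt from the first base, with 1 line per library (solid for replicate 1, dashed for replicate 2, green for 2 months, red for 18 months) and black bars for the annotated arms. Sequences with a mismatch are placed only by the run of bases before it. Both 2-month lines lie above both 18-month lines over each of the 3 members. The 3p arm of Mir298 stays near 0, with at most 0.954 CPM in a library. That maximum, at positions 65 to 67, includes a miR-298-5p sequence with a mismatch, and reads named miR-298-3p reach at most 0.527 CPM.

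The members differed in how uniform their sequences were. Single sequences are given in lower case with untemplated 3′ bases in capitals. Among those listed, the seed end is constant and the 3′ end varies. A miR-296-5p form with a shifted 5′ start and the seed GGCCCC, among the 21 described, is not listed.
miR-296-5p, RefSeq form: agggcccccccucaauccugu
miR-296-5p, 20 nt: agggcccccccucaauccug
miR-296-5p, 19 nt: agggcccccccucaauccu
miR-296-5p, 22 nt: agggcccccccucaauccuguu
miR-296-5p, untemplated C: agggcccccccucaauccugC
miR-296-3p, RefSeq form: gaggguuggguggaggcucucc
miR-296-3p, 21 nt: gaggguuggguggaggcucuc
miR-296-3p, untemplated U: gaggguuggguggaggcucucU
miR-296-3p, 20 nt: gaggguuggguggaggcucu
miR-296-3p, untemplated A: gaggguuggguggaggcucuccA
miR-298-5p, 20 nt: ggcagaggagggcuguucuu
miR-298-5p, 21 nt: ggcagaggagggcuguucuuc
miR-298-5p, 22 nt: ggcagaggagggcuguucuucc
miR-298-5p, RefSeq form: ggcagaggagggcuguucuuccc
miR-298-5p, 19 nt: ggcagaggagggcuguucu
The 5 most abundant sequences of each member are listed. By the mean over the 4 libraries, the RefSeq form led in both arms of miR-296 and a 20-nt sequence, 3 nt shorter than the RefSeq form, led in miR-298-5p. In each 18-month library, however, the 21-nt sequence of miR-298-5p was ahead of the 20-nt one.

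The RefSeq form of miR-296-5p had 206 and 251 CPM at 2 months, against 51.8 and 47.6 CPM at 18 months. It made up 78.5% and 74.5% of miR-296-5p at 2 months and 74.8% and 78.4% at 18 months. This share overlapped between the ages (exact permutation p = 1), as did that of the 20-nt form. The mean shares of the 19-nt and 22-nt forms fell from 5.35% to 1.30% and from 2.34% to 1.84%. That of the form with an untemplated C rose from 1.30% to 3.64%. For each of these shares the ages did not overlap, at the smallest possible exact permutation p of 0.33, but the gaps were narrow. The 19-nt share was 2.07% in replicate 1 at 2 months and 2.05% in replicate 1 at 18 months. Its high 2-month mean came from replicate 2, at 8.63%. For the 22-nt form the nearest values were 2.21% at 2 months (replicate 1) and 2.18% at 18 months (replicate 2). For the untemplated C form they were 1.704% and 1.815% in the same libraries. These shares are therefore no evidence of a changed make-up. The log2 change of the RefSeq form, -2.17 (SE 0.29), was close to that of the summed miRNA. Its adjusted p was 0.0594 over the 14287 sequences tested with limma. The 20-nt form had 27.4 and 22.9 CPM at 2 months, against 6.43 and 7.39 CPM at 18 months. The 19-nt form was uneven, with 5.44 and 29.1 CPM at 2 months, against 1.42 and 0.331 CPM at 18 months, and its high value was that of replicate 2 at 2 months. The form with an untemplated C in place of the last base was the exception among the 21 sequences: with 4.48 and 2.99 CPM at 2 months, against 3.78 and 1.103 CPM at 18 months, its ages overlapped.

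The RefSeq form of miR-296-3p had 11.8 and 22.8 CPM at 2 months, against 4.63 and 2.76 CPM at 18 months. Its share of miR-296-3p ranged from 37.9% to 71.0% over the 4 libraries, with both extremes at 18 months, where 69 and 66 reads stood behind the whole arm. The other 2 sequences of this arm above 1 CPM, the 21-nt form and the form ending in an untemplated U, had at most 3.16 CPM in a library and no overlap between the ages.

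miR-298-5p was spread over several 3′ ends. The 20-nt sequence had 41.7 and 52.0 CPM at 2 months, against 6.998 and 11.7 CPM at 18 months, a ratio of 5.01 and a log2 change of -2.24 (SE 0.35, adjusted p = 0.120 over all sequences tested, limma). The 21-nt sequence had 38.9 and 26.6 CPM at 2 months, against 11.4 and 12.6 CPM at 18 months, and its log2 change was -1.35. The 22-nt and 23-nt (RefSeq) sequences changed by -1.30 and -1.36 and the 19-nt sequence by -0.96, each with lower values in both older libraries.

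The share of the 20-nt sequence in miR-298-5p was compared between the ages. It was 28.0% (95% Wilson interval 25.8 to 30.3) and 28.6% (26.7 to 30.6) at 2 months and 16.6% (13.4 to 20.3) and 21.6% (18.2 to 25.4) at 18 months. The ages did not overlap and the intervals of the 2 ages were separate, with a difference of -9.21 percentage points. The exact permutation test again gave the smallest p it allows, 0.33. This sequence had the highest mean only through the 2-month libraries, so its choice favours a lower share at 18 months. The difference is therefore no independent evidence of a changed make-up. The share of all templated sequences shorter than the RefSeq form was 69.2% at 2 months and 72.5% at 18 months on average, and the mean length of miR-298-5p reads lay between 21.1 and 21.3 nt in the 4 libraries.

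**Figure D4:**
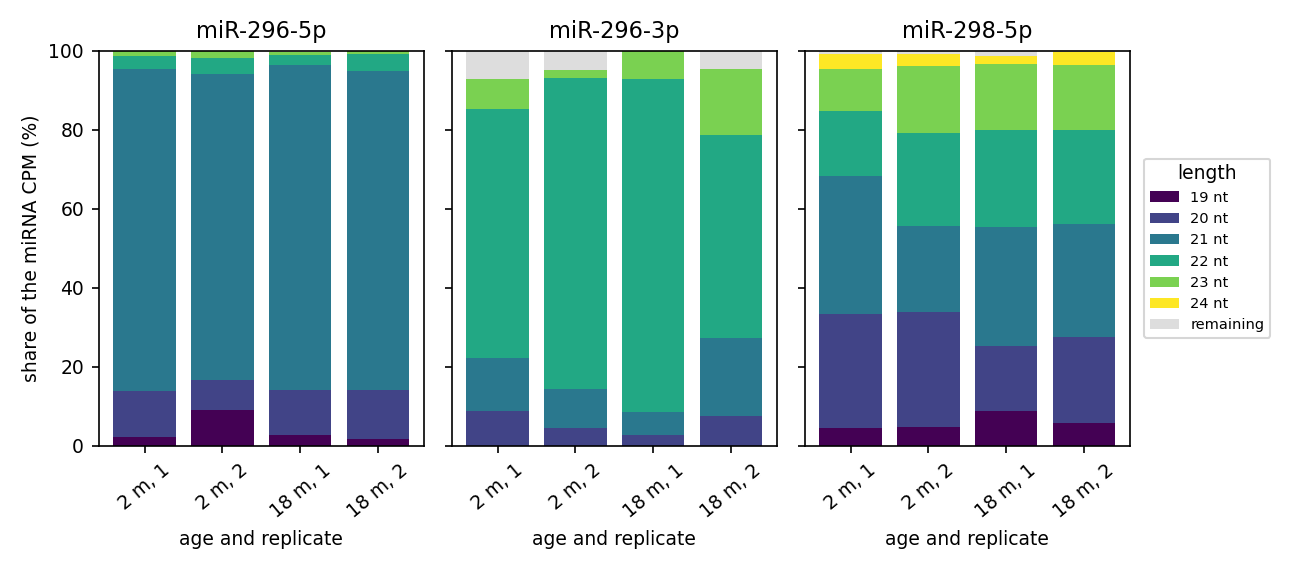
Share of each miRNA's CPM (%) by read length in each library (age in months and replicate), stacked from 19 to 24 nt, with remaining reads in grey. miR-296-5p is mainly 21 nt long in each library, miR-296-3p varies with its low read number, and in miR-298-5p the 20-nt portion is smaller in the 18-month libraries.

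Of the 21 sequences, 20 had less in each 18-month library than in either 2-month library, where 21.3% of the 14287 tested sequences were, and 18 had lower values at an unadjusted p under 0.05, where 4.23% of the tested sequences did. None of them passed an adjusted p of 0.05, which 0.042% of all tested sequences did with limma. These counts carry little weight, because 9 of the 21 had a mean under 1 CPM at 18 months and thus passed the filter only through the 2-month libraries, and because sequences of 1 hairpin arm are not independent of each other. Of the 12 with a mean of at least 1 CPM at both ages, 11 had no overlap, and the exception was the form with the untemplated C. The 76 sequences below the threshold held 30.04 and 30.73 CPM in sum at 2 months, against 5.87 and 8.16 CPM at 18 months, while the 21 held 93.9% of the members' CPM. Just inside the threshold lay a miR-296-3p sequence with a mean of 1.19 CPM, and just outside a miR-296-5p sequence with 0.882 CPM.

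**Figure D5:**
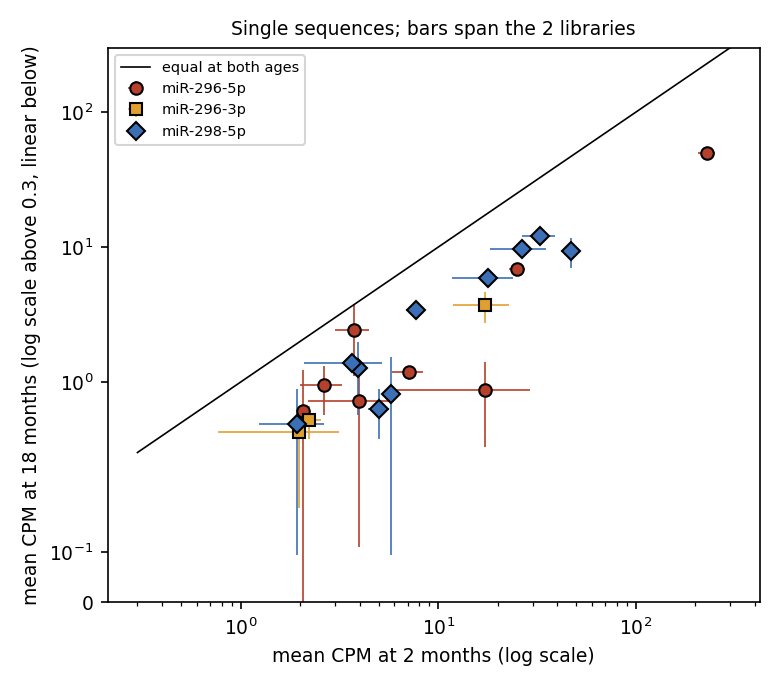
Mean CPM at 18 months against mean CPM at 2 months (log scales, linear below 0.3 CPM on the vertical axis) for the 21 sequences, by miRNA, with bars from the lower to the higher of the 2 libraries and a line of equal values. All 21 means lie below the line, and 20 sequences have no overlap between the ages.

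For R-sRNAs the 6mer seed (positions 2 to 7) carries a viability score, the mean viability in percent of control of 3 mouse cell lines transfected with that seed, and a low score marks a toxic seed. Toxic seeds are often rich in G. The seed of miR-296-5p, GGGCCC, had a viability of 15.8%, and 3.92% of the 3925 seeds in the table were lower. AGGGUU of miR-296-3p had a viability of 32.8% and GCAGAG of miR-298-5p 50.2%, so that the members covered a toxic to an intermediate seed.

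Each seed was then followed over all R-sRNAs that carry it. The seed GGGCCC had 266 and 340 CPM at 2 months, against 72.7 and 63.0 CPM at 18 months, and miR-296-5p held at least 92.6% of it in each library. The seed AGGGUU had 21.4 and 34.1 CPM at 2 months, against 6.34 and 6.84 CPM at 18 months, at least 90.3% of it from miR-296-3p. The seed GCAGAG had 164 and 192 CPM at 2 months, against 65.3 and 69.4 CPM at 18 months, of which miR-298-5p held 89.8% and 93.9% at 2 months and 64.0% and 78.1% at 18 months. The remainder of GCAGAG came mainly from sequences without a miRNA name. These had 16.7 and 11.8 CPM at 2 months, against 23.5 and 15.2 CPM at 18 months, and overlapped between the ages. No other miRNA reached 5% of any of the 3 seeds.

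Start sites that move the seed were rare in miR-296-5p and miR-298-5p. The share of reads with another seed was 1.74% and 1.72% at 2 months and 2.86% and 1.63% at 18 months in miR-296-5p. In miR-298-5p it was 1.22% and 0.821% at 2 months and 0.896% and 0% at 18 months, the last being 0 of 491 reads. In miR-296-3p it ranged from 2.90% to 15.1%, with both extremes at 18 months. None of these shares separated the ages. Accordingly, the CPM-weighted viability of miR-296-5p was between 15.9% and 16.0% and that of miR-298-5p between 50.1% and 50.2% in all 4 libraries.

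The weight of miR-296-5p among the most toxic R-sRNAs was small. Reads with a seed viability of 15.8% or less made up 1.85% and 2.32% of the R-sRNAs at 2 months and 1.29% and 1.63% at 18 months. Of these reads, miR-296-5p held 258.6 of 18520.4 and 331.2 of 23141.9 CPM at 2 months. At 18 months it held 67.3 of 12929.8 and 59.9 of 16337.5 CPM. Most of the reads with such a viability, 85.8%, belonged to miR-22-3p, which was named here after its values were seen. Its reads within this limit had 15949 and 20060 CPM at 2 months, against 10640 and 14196 CPM at 18 months.

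The miRNAs whose log2(CPM + 1) pattern over the 4 libraries was most like that of miR-296-5p were sought among the other 455 tested, by the Euclidean distance of values centred on their own mean. The nearest were the other members, miR-296-3p at a distance of 0.407 and miR-298-5p at 0.568. They were followed by miR-669a-5p/miR-669p-5p at 0.866, miR-669f-3p at 0.913 and miR-467a-5p at 0.940. miR-467a-5p, the most abundant of these, had 262 and 319 CPM at 2 months, against 114 and 125 CPM at 18 months, a log2 change of -1.27 (adjusted p = 0.0968, limma). These last 3 belong to families with many near-identical copies, between which reads may be split uncertainly. With 4 libraries, such a distance describes these libraries only. The order of these 5 repeats that of the lowest log2 changes, so the distance mainly restates the age difference. It is no separate evidence that the members belong together.

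Other imprinted miRNAs were read from lists chosen with earlier results of these data known. The miRNAs of the Dlk1-Dio3 locus, a large cluster expressed from the maternal allele and active in neurons, had 98 names in the table, of which 74 were tested. At an unadjusted p under 0.05, 17 of the 74 were lower (against 55 of the 456 tested miRNAs, 12.1%), 1 was higher and 56 did not pass, and none passed an adjusted p of 0.05 (limma). Their median log2 change was -0.40, against -0.22 over all tested miRNAs, and their range of -1.09 to 1.32 ended above each of the 3 members. After rescaling by the median of ratios, 8 of the 74 were lower (against 25 of 456) and 2 higher, with a median of -0.19 against -0.01. miR-487b-3p, the lowest of them, had 3831 and 4022 CPM at 2 months, against 1919 and 1777 CPM at 18 months, and miR-3072-3p, the highest, 10.2 and 22.4 CPM at 2 months, against 42.1 and 37.2 CPM at 18 months. Of 5 other imprinted miRNA names, 3 were tested and none passed an unadjusted p of 0.05, with changes of -0.75 for miR-335-5p, -0.33 for miR-335-3p and 0.02 for miR-184-3p.

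Markers of the cell types that the tissue could hold were measured in the same libraries. The 4 neuronal miRNAs (among them miR-124-3p and miR-9-5p) summed to 195684 and 208820 CPM at 2 months, against 204748 and 178482 CPM at 18 months, so that markers of brain tissue were present, and none of the 4 passed an unadjusted p of 0.05. The same held for the 3 oligodendrocyte miRNAs, the 2 of vascular smooth muscle and the 2 tested of red blood cells, none of which passed. The 2 endothelial miRNAs summed to 12243 and 11472 CPM at 2 months, against 5422 and 8990 CPM at 18 months. Of them, miR-126a-5p overlapped between the ages (3000 and 2618 against 2865 and 2501 CPM, log2 change -0.07). The other, miR-126a-3p, was lower by an unadjusted p of 0.0345 (log2 change -1.15, adjusted p = 0.266, limma). The change was -0.94 after rescaling, which did not pass, -0.48 without replicate 1 at 18 months and -1.82 without replicate 2 at 18 months, so that its size rested on single libraries. The 5 miRNAs of choroid plexus and epithelium summed to 28968 and 49770 CPM at 2 months, against 58510 and 65825 CPM at 18 months. Of them, miR-204-5p overlapped between the ages (2100 and 2623 against 2256 and 2786 CPM, log2 change 0.09). miR-200a-3p changed by 0.65 without passing, and 3 were higher at an unadjusted p under 0.05 (limma). These were miR-200b-3p (0.79), miR-429-3p (0.79) and miR-141-3p (0.98). Without replicate 1 at 2 months their changes were only 0.56, 0.42 and 0.54, so that their size rested partly on that library. The 2 endocrine miRNAs went apart. Lower at 18 months was miR-7a-5p, by -0.57, with no overlap and an unadjusted p of 0.0331 (adjusted p = 0.266, limma). The change of miR-375-3p was 0.49, with overlap. After rescaling, 1 of the 2 was called higher and 0 lower. The part of these differences in the values of miR-296 and miR-298 was not tested.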

How the data were processed

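The 4 Ago-RP-Seq libraries of brain tissue, 2 per age, were grouped by the sample labels. The authors trimmed the reads (Trim Galore per the submitters' notes, version not given in the sources used here), left out rare reads, named the others by comparison with collections of mouse small RNAs and deposited CPM, scaled to the same total in each library. To each sequence the authors added a viability score of its 6mer seed, deposited in percent of control. The methods give about 150 mg of tissue, the labels more.

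Whole reads were recovered from 100% of the nonzero values, within 0.25 of a read. Depth was 9067007 to 11388999 reads per library, at which 3 reads equal 0.263 to 0.331 CPM. CPM were summed by miRNA name. limma 3.58.1 with an intensity trend (R 4.3.3) took log2(CPM + 1) as its input, with age as the single term and two-sided tests, for miRNAs averaging 10 CPM or more and sequences averaging 1 CPM or more, and p values were adjusted by Benjamini-Hochberg. A fold on this scale understates the change of low sequences. Single values were compared by exact permutation tests (scipy 1.17.1). Alternatives were a replicate block, pseudocounts of 0.1 and 5, other filters, limma without the trend, edgeR 4.0.16 (quasi-likelihood) and DESeq2 1.42.0 on recovered reads, rescaling by the median of ratios and leaving out each library.

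Named are the members, their 5 most abundant sequences, the other arm of Mir298, the 5 miRNAs nearest in pattern to miR-296-5p, miRNAs with at least 5% of a member's seed, the extremes of the imprinted lists and the cell type markers. The members and lists were chosen with earlier results of these data known. Coordinates are on GRCm38 (GENCODE and RefSeq). The table's RNA names refer to another build, whose coordinates were not used.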

Additional observations from a re-analysis of the deposited data

How the results depend on the processing

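The 3 members kept their direction and an unadjusted p under 0.05 under each alternative run (13, 12 and 13 for miR-296-5p, miR-296-3p and miR-298-5p), with log2 changes of -2.36 to -1.97, -2.21 to -1.50 and -1.94 to -1.55. Leaving out each library gave -2.36 to -2.00, -2.21 to -1.59 and -1.94 to -1.59. Calls at an adjusted p of 0.05 did depend on the method: adjusted p ranged from 9.36e-09 (DESeq2) to 0.220 for miR-296-5p, from 0.000764 to 0.348 for miR-296-3p and from 4.03e-05 to 0.348 for miR-298-5p, and with edgeR miR-296-5p had 0.0509. With a replicate block the log2 changes stayed at -2.18, -1.90 and -1.76 and each adjusted p was 0.220, with no miRNA of 456 passing (79 at an unadjusted p under 0.05). Same-numbered libraries are of different mice, and the correlation of their deviations was 0.180 with only 2 pairs, so the numbers were not taken as a pairing.

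The count of miRNAs called at an unadjusted p under 0.05 was 74, and 125 without a filter and 43 at a mean of at least 100 CPM, a filter that miR-296-3p does not pass. For sequences it was 1443, and 3327 without a filter and 424 at a mean of at least 10 CPM, where the number of features tested differs by construction. Leaving out each library gave 55 to 74 miRNAs and 1065 to 1411 sequences. Adjusted calls were 1 miRNA with limma, 19 with DESeq2 and 0 with edgeR, which called 62 at an unadjusted p under 0.05. The age difference in the share of the 20-nt sequence of miR-298-5p was -11.7 to -6.71 percentage points when each library was left out. Among the other shares recomputed in this way, the age differences could change sign when 1 library was left out, except that of shifted seeds in miR-298-5p. Sequences at a few CPM rest on few reads (down to 66 for the whole of miR-296-3p), which limits statements on their make-up.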

Other observations

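After the members, the lowest log2 changes came from miRNAs of the miR-297, miR-466, miR-467 and miR-669 families, most of whose genes lie in an intron of Sfmbt2, which is also an imprinted locus. This group was put together after its values were seen and is given without a test. Of its 53 names 16 were tested, all 16 with a negative change (312 of all 456 tested miRNAs had one), 12 of them lower at an unadjusted p under 0.05 (limma, 12.1% of all tested miRNAs) and none at an adjusted p of 0.05. The median log2 change was -1.10, from -1.37 to -0.34, and after rescaling by the median of ratios 9 were lower at the unadjusted threshold (25 of all 456), with a median of -0.91. miR-669f-3p had 28.8 and 30.8 CPM at 2 months, against 12.4 and 10.9 CPM at 18 months, and miR-669a-5p/miR-669p-5p had 27.0 and 29.4 CPM at 2 months, against 9.55 and 11.03 CPM at 18 months. The tested miRNAs of these families summed to 894 and 1010 CPM at 2 months, against 426 and 456 CPM at 18 months. None of the 16 fell as far as any of the 3 members.

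A sequence of miR-296-3p under 1 CPM, ending in an untemplated A, had 1.05 and 0.088 CPM at 2 months, against 0.473 and 0.993 CPM at 18 months. Its ages overlapped, unlike those of the 3 most abundant sequences of this arm.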
